A study of Danio rerio with 9 samples.

Results

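The zebrafish genome carries a pair of insulin genes, ins (ENSDARG00000035350) and insb (ENSDARG00000034610), and both were followed through embryonic and early larval life. They were taken from the deposited table by gene symbol, ignoring case, and are 2 of the 29291 genes measured. Poly(A) RNA came from whole, untreated embryos or larvae of the AB strain, with about 2000 individuals pooled for each of 9 stages and 1 library per stage. The stages were 64-cell at 2 hours post-fertilization (hpf), oblong-sphere at 3.6 to 4 hpf, 50%-epiboly at 5.25 hpf, 15-somite at 16.5 to 17.5 hpf, Prim-25 at 36 hpf, Long-pec at 48 hpf, Pec-fin at 60 hpf, Protruding-mouth at 72 hpf and the larva at 1 week. No stage had a replicate, so no difference was tested. The pair was chosen by its RPKM course over these same libraries, so the levels below describe them and support nothing further.

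Insulin is a secreted peptide hormone that lowers blood glucose and promotes growth. It is made as a precursor, cut by proprotein convertases in the secretory granules of pancreatic beta cells, and read by the insulin receptor, a tyrosine kinase that passes the signal through IRS adaptor proteins to PI3 kinase and AKT. Beta cells form in the islets beside alpha cells, which make glucagon, and delta cells, which make somatostatin. Exocrine cells of the same organ make digestive enzymes. In zebrafish, ins marks the beta cells, and insb is a second insulin gene kept from the genome duplication of teleost fish. Whole animals were used here, so more cells of a type and more RNA per cell cannot be told apart.

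The values are RPKM, reads scaled to the length of the gene and to the mapped reads of the library. Mapped reads, worked out from the deposited values, ranged from 123311411 at 64-cell to 205507592 at Protruding-mouth among the 8 libraries of 1 run. The Pec-fin values fitted an average over 2 sequencing runs, with 171010360 mapped reads in one and 59857652 in the other. The values of ins were whole reads over a length of 485 bases and those of insb whole reads over 1055 bases. Intervals on levels are exact 95% Poisson intervals on those reads. Intervals on ratios come from the exact binomial split of reads between the 2 libraries, with both runs pooled at Pec-fin. The ratios themselves use the deposited Pec-fin values. All intervals cover counting error only, not the spread between batches of embryos.

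The gene ins had between 1 and 19 reads in each of the 3 libraries up to 50%-epiboly, and by Pec-fin it was above 93.7% of all genes. It had 0.251 RPKM at 64-cell (15 reads, interval 0.140 to 0.414), 0.0109 RPKM at oblong-sphere (1 read, 0.000275 to 0.0606), 0.204 RPKM at 50%-epiboly (19 reads, 0.123 to 0.318) and 0.586 RPKM at 15-somite (56 reads, 0.443 to 0.761). It then had 6.50 RPKM at Prim-25 (562 reads, 5.97 to 7.06), 14.7 RPKM in the Long-pec library (1353 reads, 13.9 to 15.5), 26.2 RPKM at Pec-fin, 23.2 RPKM at Protruding-mouth (2313 reads, 22.3 to 24.2) and 25.7 RPKM at 1 week (2549 reads, 24.7 to 26.7). The 4 earliest libraries were all under 1 RPKM and the 5 later ones all above 6. In the Pec-fin library the runs gave 26.9 RPKM (2230 reads) and 25.5 RPKM (741 reads), with overlapping intervals of 25.8 to 28.0 and 23.7 to 27.4. By rank, ins was the 14631st of the 29291 genes at 15-somite, the 5996th at Prim-25, the 3344th at Long-pec and the 1831st at Pec-fin.

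Ordered by level, ins was highest at Pec-fin, as were 2.94% of genes past the filter described next, followed by 1 week, Protruding-mouth, Long-pec, Prim-25, 15-somite, 64-cell, 50%-epiboly and oblong-sphere. The counting intervals of Pec-fin and 1 week overlapped, as did those of 64-cell and 50%-epiboly, and the other neighbours in the order stood apart. The step from 15-somite to Prim-25 was the widest among the later stages. Its RPKM ratio was 11.1 (counting interval 8.42 to 14.9) and its difference in log2(RPKM + 1) was 2.24. Of the 19868 genes that reached 1 RPKM in at least 1 library, 6.23% were at least 2-fold higher at this step, that is, had a difference of at least 1 in log2(RPKM + 1), and 267 genes, ins included, differed by as much as ins or more. From Prim-25 to Long-pec ins was 2.26 times higher (2.04 to 2.49), a log2 difference of 1.06 at a step where 0.81% of genes were at least 2-fold higher. That difference was 0.92 when RPKM was rescaled without the 100 most abundant genes and 0.89 when it was rescaled without mitochondrially encoded genes, both under 2-fold. Few genes were at least 2-fold lower there, 0.403%. From Long-pec to Pec-fin the ratio of ins was 1.79 (1.70 to 1.93), short of 2-fold, at a step where 0.785% of genes were higher by 2-fold or more and 0.72% lower.

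From Pec-fin on, ins kept within a narrow range in RPKM as deposited. It was 0.886 times its Pec-fin level at Protruding-mouth (counting interval 0.828 to 0.924), and at 1 week 1.11 times its Protruding-mouth level (1.05 to 1.17). At the former step 2.1% of all genes were at least 2-fold lower, and at the latter 6.86%. The direction of both small differences turned with the scaling. The first was -0.17 in log2(RPKM + 1) as deposited and 0.10 when rescaled without mitochondrially encoded genes, and the second was 0.14 as deposited and -0.27 with median-of-ratios scaling. Under that scaling ins had 15.7 RPKM at 1 week.

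The gene insb took another course, with a single high stage in the early gastrula. It had 1.40 RPKM at 64-cell (182 reads, interval 1.203 to 1.62), 1.295 RPKM at oblong-sphere (259 reads, 1.14 to 1.46), 14.8 RPKM at 50%-epiboly (3000 reads, 14.3 to 15.3) and 2.03 RPKM at 15-somite (421 reads, 1.84 to 2.23). It had 0.532 RPKM at Prim-25 (100 reads, 0.433 to 0.647), 0.717 RPKM at Long-pec (144 reads, 0.605 to 0.844), 0.209 RPKM at Pec-fin, 0.111 RPKM at Protruding-mouth (24 reads, 0.0709 to 0.165) and 0.181 RPKM at 1 week (39 reads, 0.129 to 0.247). The 50%-epiboly library was 7.30 times higher than the next one, 15-somite, and the 5 libraries from Prim-25 on were all under 1 RPKM. The Pec-fin runs gave 0.227 RPKM (41 reads) and 0.190 RPKM (12 reads), with overlapping intervals.

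**Figure D1:**
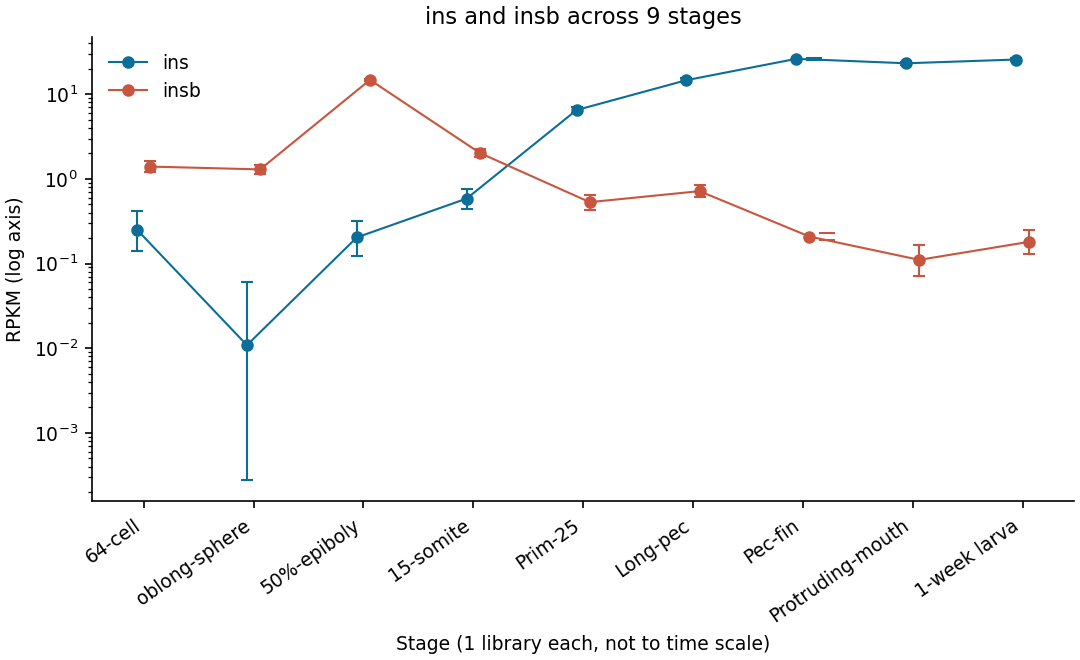
RPKM of ins and insb (log axis) in the 1 library of each of 9 stages; bars are exact 95% Poisson intervals on the reads, and the short dashes beside Pec-fin are its 2 runs, whose mean has no bar. The insb points lie above those of ins up to 15-somite and below them from Prim-25 on.

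Between oblong-sphere and 50%-epiboly insb was 11.4 times higher (counting interval 10.1 to 13.01), a difference of 2.78 in log2(RPKM + 1). Of all genes past the filter, 14.4% were higher by 2-fold or more at this step and 31.1% lower, and 767 genes, insb included, had a difference as large or larger. Between 50%-epiboly and 15-somite insb was 7.30 times lower (6.59 to 8.11), with a log2 difference of -2.38. At least 2-fold lower were 4.91% of genes, and 143 had a difference as low or lower. With median-of-ratios scaling these differences were 3.19 and -2.96. From 15-somite to Prim-25 the ratio was 3.81 (3.06 to 4.79) with a log2 difference of -0.98, just short of 2-fold on the log2(RPKM + 1) scale (-1.003 when rescaled without mitochondrially encoded genes), where 4.96% of genes were at least 2-fold lower.

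The early levels of insb did not separate by counting error, with overlapping intervals at 64-cell and oblong-sphere (ratio 0.926, interval 0.763 to 1.13). The next neighbours that overlapped in the order of levels were Long-pec with Prim-25, Pec-fin with 1 week, and 1 week with Protruding-mouth. Though their intervals overlapped, the ratio of Long-pec to Prim-25 was 1.35, with a counting interval of 1.04 to 1.76 that leaves out 1. Of the 19868 genes, 9.06% had their highest value at 50%-epiboly, and 0.493% (98 genes) were there at least 5-fold above every other library, as insb was. The tau index, which runs from 0 for a gene with equal log2(RPKM + 1) in all libraries to 1 for a gene seen in a single one, was 0.808 for insb and 0.541 for ins, against a median of 0.487. It was lower than that of insb in 88.0% of genes.

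Because RPKM is per length, the levels of both genes can be set side by side. Of their summed RPKM, ins made up 15.2% at 64-cell (exact binomial interval on the reads 8.95% to 23.3%), 0.833% at oblong-sphere (0.0212% to 4.51%), 1.36% at 50%-epiboly (0.821% to 2.11%) and 22.4% at 15-somite (17.7% to 27.7%). At Prim-25 it made up 92.4% (90.8% to 93.9%) and at Long-pec 95.3% (94.5% to 96.1%). It made up 99.2% at Pec-fin, 99.5% at Protruding-mouth and 99.3% at 1 week. By the deposited values, the gene with most of the insulin RNA was thus insb in the 4 libraries up to 15-somite and ins in the 5 from Prim-25 on. This rests on the reads counted to insb, which overlaps another gene, as described below. No scaling of whole libraries can alter these shares. At 50%-epiboly insb was 72.6 times the level of ins, and at Protruding-mouth ins was 210 times (209.6) the level of insb. Their sum was 15.0 RPKM at 50%-epiboly, 2.61 RPKM at 15-somite, 7.03 RPKM by Prim-25, 15.4 RPKM by Long-pec and 25.9 RPKM at 1 week, so that it was lower at 15-somite than in the gastrula before it or the embryo after it.

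**Figure D2:**
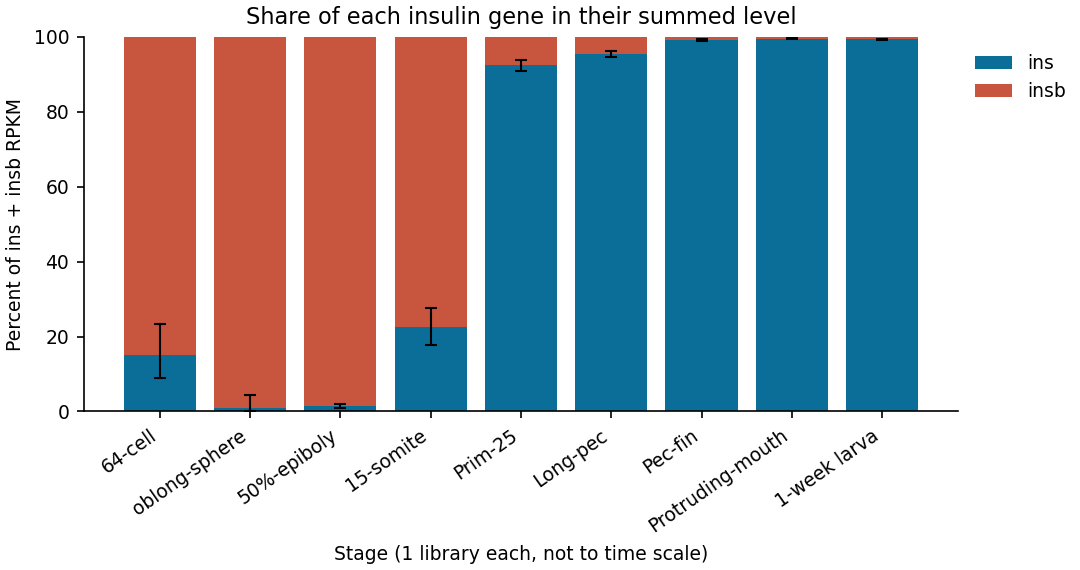
Percent of the summed RPKM of ins and insb that belongs to each gene, by stage; bars are exact 95% binomial intervals on the reads, those of both runs together at Pec-fin. The share of ins is between 0.833% and 22.4% in the 4 earliest libraries and between 92.4% and 99.5% in the 5 later ones.

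The genes beside them on the chromosome were looked up as well. In RefSeq's assembly GRCz12tu, which is not the build of the deposited table and serves here only for gene order, insb lies between hmmr and tenm2a, and overlaps tenm2a. The table holds hmmr, a gene of the mitotic spindle, at 34.1 RPKM at 64-cell, 28.2 RPKM at oblong-sphere, 14.9 RPKM at 50%-epiboly and 15.6 RPKM at 15-somite. The symbol TENM2, for a teneurin adhesion protein, belongs to 2 IDs that cannot be assigned to tenm2a here, and their values at 50%-epiboly were 0.0697 and 0.0316 RPKM. The latter ID had 2.46 RPKM at 64-cell and 2.87 RPKM at oblong-sphere, above insb in both libraries (1.40 and 1.295 RPKM). The former had 0.00850 and 0.00673 RPKM in them. None of these 3 IDs beside insb was highest at 50%-epiboly. Whether the counting used strand is not given in the sources used here, so reads of insb and of an overlapping gene cannot be told apart. In the same assembly ins lies between panx1b and arhgap35b and overlaps neither. The symbol PANX1, for a pannexin channel protein, belongs to 2 IDs that cannot be assigned to panx1b here. One of them (ENSDARG00000014910) had, like ins, low values up to 15-somite, between 0.0929 and 0.262 RPKM, and higher ones from Prim-25 on, between 1.71 and 3.46 RPKM. The other (ENSDARG00000025285) was highest at 50%-epiboly, at 50.9 RPKM. On the other side, arhgap35b was highest at oblong-sphere (18.5 RPKM) and had 4.01 RPKM at Pec-fin.

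The other hormones of the islet were followed in a list of 12 symbols, of which 10 genes including ins and insb were in the table. At the step from 15-somite to Prim-25, 5 of the 10 were higher by 2-fold or more and none lower (1 lower when rescaled without mitochondrially encoded genes). Over all genes 6.23% were higher and 4.96% lower. The median log2(RPKM + 1) difference of the list was 1.05, and that of all genes -0.06. The 5 were ins, which was chosen for this course, GCG (a glucagon gene, 0.309 and then 4.19 RPKM), the somatostatin genes sst2 (4.90 and then 64.5 RPKM) and sst1.2 (4.78 and then 17.0 RPKM), and pyya (peptide YY, 0.0727 and then 2.46 RPKM). The other glucagon gene, gcga, had 0.2999 and then 0.559 RPKM. At Pec-fin, where ins was highest, GCG had its highest value too, 10.4 RPKM, while gcga had 1.202 RPKM there and 3.34 RPKM at 1 week. The somatostatin gene sst2 stood at 110.9 RPKM at Protruding-mouth, but somatostatin and peptide YY are also made in the brain and gut. Of 18 neuron genes, 15 were higher by 2-fold or more at the step from 15-somite to Prim-25 and 0 lower, and their part in these values was not tested.

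Transcription factors of the endocrine pancreas were counted at the step before. Of 24 such genes past the filter on low values, 15 were higher by 2-fold or more between 50%-epiboly and 15-somite and 5 lower (median 1.70). Over all genes 16.4% were higher and 4.91% lower. With list symbols matched exactly, which leaves fewer of the 24, 3 were higher, so most of the 15 came from symbols that paralogues share. The number of genes left is not given here, so these 3 cannot be set beside the 16.4%. At the next step, where ins was 11.1 times higher, 3 of the 24 were higher and 3 lower. Over all genes 6.23% were higher and 4.96% lower there. From Protruding-mouth to 1 week 10 of the 24 were lower by 2-fold or more and 0 higher (median -0.97). Over all genes 6.86% were lower at that last step and 15.1% higher. The proendocrine factor NEUROD1 had 0.105 RPKM at 50%-epiboly, 10.0 RPKM at 15-somite, 16.6 RPKM at Prim-25, 96.7 RPKM at Protruding-mouth and 60.8 RPKM at 1 week. MNX1, a homeobox factor needed for beta cells in zebrafish, had 1.08 RPKM at 50%-epiboly and 4.90 RPKM at 15-somite. Its values at Protruding-mouth and 1 week were 5.29 and 1.26 RPKM. The insulin gene activator pdx1 had 4.20 RPKM at 64-cell and 6.66 RPKM at oblong-sphere, and from 50%-epiboly to Pec-fin lay between 1.25 and 3.09 RPKM. Unlike NEUROD1 and MNX1 it was higher at 1 week (4.52 RPKM) than at Protruding-mouth (2.98 RPKM). The most abundant of the list were SOX4 (140.05 RPKM at Protruding-mouth), NEUROD1 and INSM1 (72.6 RPKM at Long-pec), which neurons share. Most of these factors are also used outside the pancreas, in neurons above all, and NEUROD1 is on the neuron list as well. Of the neuron list, 9 of 18 genes were higher by 2-fold or more between 50%-epiboly and 15-somite and 0 lower (median 1.04), and its part in the count of these factors was not tested.

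Enzymes that turn proinsulin into insulin had higher values at Prim-25 than at 15-somite, as ins did, and again after Pec-fin. PCSK2, a proprotein convertase, had 0.285 RPKM at 15-somite, 1.83 RPKM at Prim-25, 2.11 RPKM at Pec-fin and 6.05 RPKM at Protruding-mouth. CPE, the carboxypeptidase that trims the cut ends, had 1.06, 6.61, 8.96 and 31.4 RPKM at these stages. PCSK1, another convertase, was under 1 RPKM up to Pec-fin, with 0.0444 RPKM at 15-somite, 0.232 RPKM at Prim-25, 0.235 RPKM at Pec-fin, 2.04 RPKM at Protruding-mouth and 4.25 RPKM at 1 week. At Long-pec, where ins was 2.26 times its Prim-25 level, PCSK2 had 1.93 RPKM, CPE 8.02 RPKM and PCSK1 0.138 RPKM. Of 12 genes of prohormone processing and the secretory granule, 5 were higher by 2-fold or more from 15-somite to Prim-25 and 1 lower (median 0.72, and 0 lower with median-of-ratios scaling). Over all genes 6.23% were higher and 4.96% lower at that step. Of the same 12, 7 were at least 2-fold higher and 0 lower from Pec-fin to Protruding-mouth (median 1.15, all genes 0.13), where 7.18% of all genes were at least 2-fold higher and ins had 0.886 times its Pec-fin level. With median-of-ratios scaling 3 of the 12 were higher, and the count over all genes was 793, against 1427 as deposited. The granule proteins scg2b (50.9 RPKM) and SCG3 (32.7 RPKM) were, with CPE, the most abundant of the list, each highest at 1 week. Of 13 genes of glucose sensing and insulin release past the filter, 4 were higher from 15-somite to Prim-25 and 0 lower, and 7 were higher from Pec-fin to Protruding-mouth and 0 lower, or 4 higher with median-of-ratios scaling. The most abundant of these, 2 genes with the symbol SNAP25, part of the release machinery, reached 135.9 and 90.6 RPKM at 1 week. Nerve cells use many of the same genes, and the neuron list shares both SNAP25 genes and vamp2 with the insulin release list. Of the 18 neuron genes, led in level by tubb5, SNAP25 and STMN2, 15 were higher at the former step and 12 at the latter, and their part in these counts was not tested.

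Many exocrine enzymes of the pancreas and some liver genes had, like ins, lower values at oblong-sphere than in the libraries on either side. The median level over 21 exocrine genes was 3.08 RPKM at 64-cell, 0.0129 RPKM at oblong-sphere, 1.21 RPKM at 50%-epiboly and 3.43 RPKM at 15-somite. The trypsin gene prss1 had 20.9, 0.273, 12.1 and 25.4 RPKM in these libraries, where ins had 0.251, 0.0109, 0.204 and 0.586 RPKM. Of 10 islet hormone genes, 1 was at least 2-fold lower from 64-cell to oblong-sphere and 0 higher (median -0.01). It was the somatostatin gene sst2, with 1.505 RPKM at 64-cell and listed at 0 at oblong-sphere. The other somatostatin gene, sst1.2, had 0.00803 and then 0.0147 RPKM. Between 64-cell and oblong-sphere the ratio of ins was 23.1, with a counting interval from 3.55 to 971 set by the single read at oblong-sphere, and 13 of 20 exocrine genes past the filter were at least 2-fold lower and 0 higher, against 3.3% of all genes lower and 3.1% higher. The liver gene fabp10a, a fatty acid binding protein, had 20.6, 0.0116, 7.64 and 24.4 RPKM in the 4 libraries up to 15-somite, and of 23 genes of liver and plasma proteins 11 were lower by 2-fold or more from 64-cell to oblong-sphere and 0 higher. The liver list was mixed, as 6 of its 25 genes in the table were highest at 64-cell. Its median was 1.04, 0.0201, 0.668 and 9.40 RPKM in the libraries from 64-cell to 15-somite. The part of the exocrine and liver genes in the early ins values was not tested. From Prim-25 to Long-pec, where ins was 2.26 times higher, 10 of the 20 exocrine genes were higher and 0 lower, against 0.81% and 0.403% of all genes. At the steps on either side they were mainly lower while ins was higher, with 11 of 20 lower from 15-somite to Prim-25 and 13 of 20 from Long-pec to Pec-fin. Over all genes 4.96% were at least 2-fold lower at the former step and 0.72% at the latter. The exocrine median was 0.792 RPKM at Prim-25, 2.998 RPKM in the Long-pec library and 0.0678 RPKM at Pec-fin, and prss1 had 17.6 RPKM at Long-pec and 1.38 RPKM at Pec-fin, the step at which ins was 1.79 times higher. The most abundant exocrine genes at 1 week were prss59.2 (6610.2 RPKM), prss1 (4939 RPKM) and ctrb.1 (4168 RPKM). At 1 week the exocrine median was 904 RPKM (904.2) and that of Protruding-mouth 4.05 RPKM, while ins as deposited was within 1.11 times. The 3 other scalings put ins lower at 1 week, with log2(RPKM + 1) differences of -0.27, -0.39 and -0.37. At 50%-epiboly, where insb was highest, prss1 had 12.1 RPKM and fabp10a 7.64 RPKM, both below their 15-somite values. The part of the exocrine and liver genes in the insb values was not tested.

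**Figure D3:**
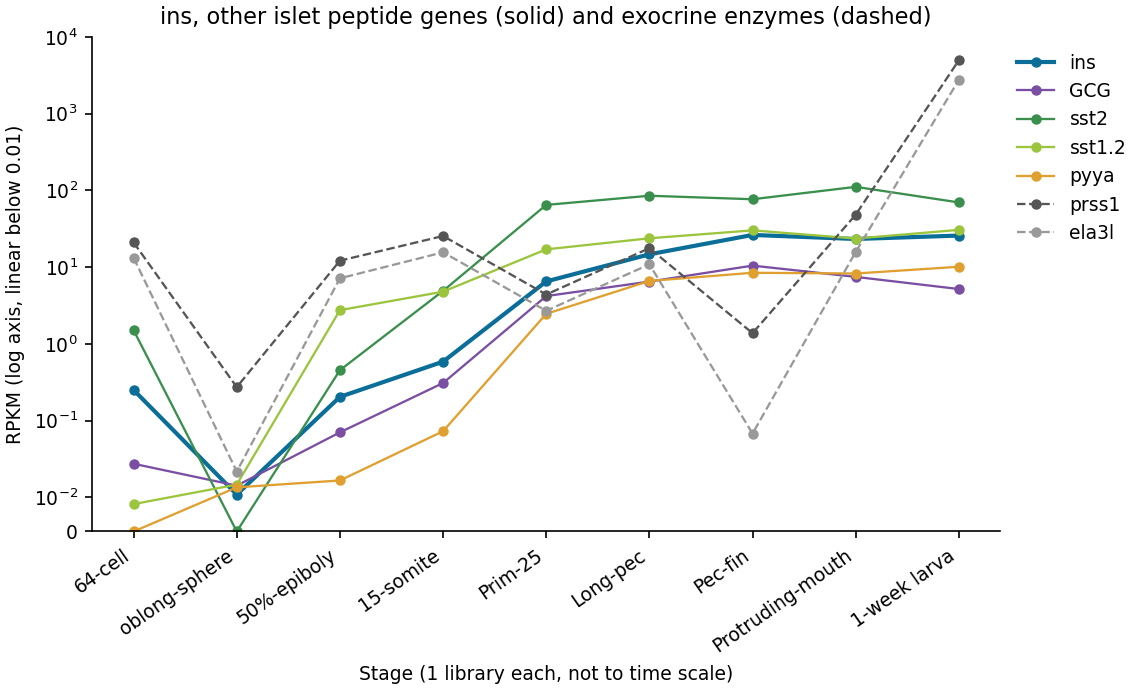
RPKM by stage (log axis, linear below 0.01) of ins and 4 other islet peptide genes (solid lines) and of the exocrine enzymes prss1 and ela3l (dashed), 1 library per stage. The exocrine genes are lower at oblong-sphere, Prim-25 and Pec-fin than in the libraries on either side, while ins goes from 0.586 RPKM at 15-somite to 26.2 RPKM at Pec-fin.

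The genes with the courses most like those of the members were sought among 13110 genes with a symbol of their own, by Pearson's r of log2(RPKM + 1) over the 9 libraries, which all points share with the same depths. For ins these were pyya (r = 0.996), the homeobox gene BARHL1 (0.993), the lens crystallin cryba1l1 (0.993), the lens membrane gene lim2.3 (0.992) and the crystallin CRYGN (0.992), and 304 genes had r of at least 0.95. The lens genes were far more abundant, with cryba1l1 at 1701 RPKM at 1 week. For insb they were the tyrosine kinase gene ptk6a (0.991), the ubiquitin ligase gene znrf2a (0.990), si:dkey-92i17.2 (0.990), trim25l (0.976) and RHOV (0.974), and 17 genes had r of at least 0.95. At 50%-epiboly znrf2a had 99.4 RPKM, with 6.15 RPKM before and 15.2 RPKM after, and si:dkey-92i17.2 had 28.8 RPKM, with 2.34 RPKM before and 5.02 RPKM after. With Spearman's rank correlation 0 of the 5 genes stayed among the 5 most alike for ins, and 0 of 5 for insb.

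**Figure D4:**
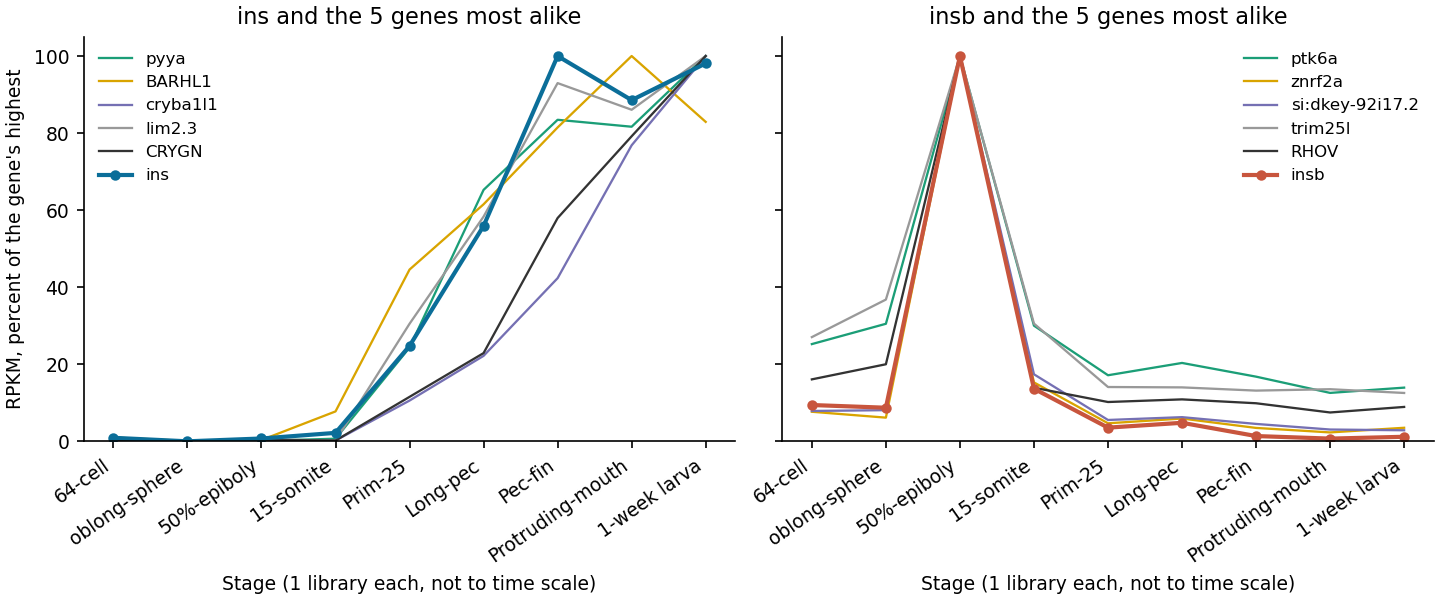
RPKM as a percent of each gene's own highest value by stage, for ins (left) and insb (right) with the 5 genes most alike by Pearson's r, 1 library per stage. The 5 genes beside insb all peak at 50%-epiboly, and those beside ins are near their lowest up to 15-somite.

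The receptors were highest before either insulin gene was. The 2 genes with the symbol INSR, the insulin receptor, had 21.3 RPKM (ENSDARG00000011948) and 31.0 RPKM (ENSDARG00000071524) at 64-cell and 21.1 and 31.1 RPKM at oblong-sphere. At 50%-epiboly, where insb peaked, they had 3.02 and 2.92 RPKM, 6.97 and 10.7 times lower. From 15-somite on the former lay between 3.46 and 7.09 RPKM and the latter between 1.34 and 4.67 RPKM. The 2 genes with the symbol IGF1R, the receptor for insulin-like growth factors, were 4.89 and 14.1 times lower at the same step, at 2.22 (ENSDARG00000027423) and 0.926 RPKM (ENSDARG00000034434). The insulin-degrading enzyme IDE had 149 RPKM (148.9) at 64-cell and 28.1 RPKM at 50%-epiboly.

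Adaptors and kinases downstream of the receptors were followed at the same step. IRS1, an adaptor of the receptor, had 10.7 RPKM at oblong-sphere and 2.48 RPKM at 50%-epiboly. Of 25 genes of the receptors and proximal signalling, a list that holds the 4 receptor genes and IDE, 14 were lower by 2-fold or more at this step and 0 higher (median -1.59, all genes -0.09), where 31.1% of all genes were lower. With list symbols matched exactly, which leaves fewer of the 25, 5 were lower, so most of the 14 came from symbols that paralogues share. How many genes that leaves is not given here, so these 5 cannot be set beside the share over all genes. With median-of-ratios scaling 1 was higher. The kinase gene PDPK1 was highest at 64-cell, at 55.8 RPKM. The kinase gene akt2 went the other way, with 36.2 and then 64.2 RPKM. Of the 18 genes of the mTOR and FOXO branch, 8 were lower and 3 higher, where 14.4% of all genes were higher. With exact matching, which leaves fewer of the 18, 4 were lower, and the rest of the 8 came from symbols that paralogues share. These 4 likewise cannot be set beside the 31.1% of all genes that were lower. The most abundant were eif4ebp1, a translation repressor under mTOR (98.7 RPKM at 15-somite), the kinase gene GSK3A (74.8 RPKM at 64-cell) and rps6kb1b, an S6 kinase gene (61.3 RPKM at oblong-sphere). Of the 2 genes with the symbol IRS2, a second adaptor, both were highest at 1 week in RPKM as deposited. They had 16.3 RPKM (ENSDARG00000037099) and 12.6 RPKM (ENSDARG00000075282) there, from 3.11 and 4.84 RPKM at Protruding-mouth. The former also had 11.2 RPKM at oblong-sphere and 1.80 RPKM at 50%-epiboly.

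**Figure D5:**
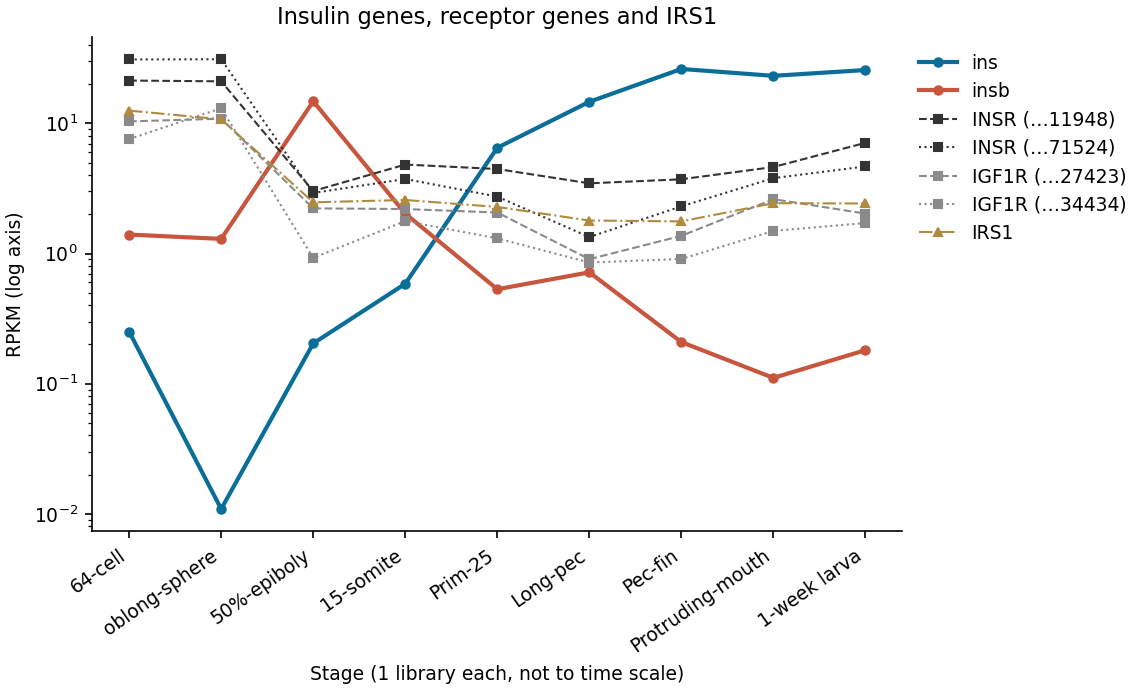
RPKM by stage (log axis) of ins and insb (thick lines), the 2 INSR genes, the 2 IGF1R genes, each marked by the last digits of its Ensembl ID, and IRS1, 1 library per stage. The receptor genes and IRS1 are highest at 64-cell or oblong-sphere, before the insb peak at 50%-epiboly and the later levels of ins.

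Other peptides of the insulin superfamily gave a further comparison. Of 9 such genes in the table, insb included, 4 were at least 2-fold higher and 0 lower from oblong-sphere to 50%-epiboly. Over all genes 14.4% were higher there and 31.1% lower. The 4 included insb, which was chosen for its course over these libraries. The others were the growth factor genes igf2a (1.33 and then 7.59 RPKM) and igf3 (listed at 0 and then 5.68 RPKM), and insl3, a peptide of the gonad (0.00566 and then 7.09 RPKM). Like insb, igf3 was highest at 50%-epiboly and had 0.682 RPKM at 15-somite. But igf2a was higher at 15-somite, at 10.2 RPKM, and insl3 there had 15.0 RPKM, with 1.76 RPKM at Prim-25 and, at Long-pec, 12.8 RPKM. At Pec-fin insl3 had 0.0865 RPKM. The exocrine gene prss1 had 25.4, 4.39, 17.6 and 1.38 RPKM from 15-somite to Pec-fin. The part of the exocrine genes in the insl3 values was not tested. The growth factor gene igf2b had 0.244 RPKM at 50%-epiboly, 6.32 RPKM at 15-somite and 21.2 RPKM at 1 week, where ins had 25.7 RPKM. The relaxin-family genes rln3a (3.42 RPKM), insl5a (2.26 RPKM) and insl5b (1.08 RPKM) were highest at 1 week.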

How the data were processed

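The authors deposited RPKM values, 1 per Ensembl gene and stage, for 29291 genes and 9 libraries. Per the submitters' processing notes the build was Zv9, and per the labels' protocols poly(A) RNA was made into SOLiD fragment libraries. Which aligner, counting program, annotation and filters the authors used is not given in the sources used here. Gene symbols matched 19580 of the IDs. A list symbol with no exact match was matched to the symbol its paralogues share.

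Mapped reads were taken as the whole numbers that turn RPKM into whole reads over a whole gene length, with a relative tolerance of 1e-09. This held for 79.0% of the 19868 genes that reached 1 RPKM in some library, the filter used. That Pec-fin is a mean of 2 runs is read from the values. The recovery was tested on simulated data. Differences are in log2(RPKM + 1), and no test was made. Members and 13 gene lists were chosen with earlier results of these data known. Named were the members, 5 genes most like each, the 3 most abundant genes of each list, and set genes of insulin making and sensing, of which igf1 and sst1.1 matched no ID and are not analysed here. The neighbours on the chromosome, GCG, ela3l, fabp10a, rln3a, insl5a and insl5b were named after their values were seen. Alternatives were another pseudocount (0.1), 3 other scalings, no filter and Spearman correlation; single Pec-fin runs and exact list matching were added after seeing the data. Python 3.11.15, numpy 2.4.6, pandas 2.3.3 and scipy 1.17.1 were used.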

Additional observations from a re-analysis of the deposited data

How the results depend on the processing

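With 1 library per stage, only counting error could be set on a value, and the 1 read of ins at oblong-sphere limits every ratio made with it. No paired analysis was possible because no stage has a second library. The cause of the shifts below was not tested. A pseudocount of 0.1 widens differences of low genes by construction. It gave, for ins, -1.66, 1.45, 1.18 and 3.27 at the 4 steps from 64-cell to Prim-25, where the values as reported were -0.31, 0.25, 0.40 and 2.24, so that the first 3 passed 2-fold. For insb it gave 3.42, -2.81, -1.75, 0.37, -1.40, -0.55 and 0.41 at the 7 steps from oblong-sphere on. Median-of-ratios scaling gave -0.46 for ins from Pec-fin to Protruding-mouth and -0.27 from there to 1 week, and 3.19 and -2.96 for insb into and out of 50%-epiboly. It moved the level of ins to 19.1 RPKM at Protruding-mouth and 15.7 RPKM at 1 week, and that of insb to 1.495 RPKM at oblong-sphere, 21.8 RPKM at 50%-epiboly and 0.110 RPKM at 1 week. Scaling without the 100 most abundant genes gave, for ins, 0.92 from Prim-25 to Long-pec, -0.054 from Pec-fin to Protruding-mouth and -0.39 to 1 week. Scaling without mitochondrially encoded genes gave 0.89, 0.10 and -0.37 at these steps. The 8 differences made from a single Pec-fin run, and the rescaled differences and levels not listed, kept within counting error. Median-of-ratios scaling moved the median difference of all genes by -0.19 from 50%-epiboly to 15-somite, -0.15 from Pec-fin to Protruding-mouth and -0.26 to 1 week; the scalings without abundant and without mitochondrially encoded genes moved the last by -0.37 and -0.35, and the latter moved the step before it by 0.17. Of the counts over all genes, 2869 were at least 2-fold higher from oblong-sphere to 50%-epiboly (4652 with a pseudocount of 0.1), 976 lower from there to 15-somite (1565, and 2680 with median-of-ratios scaling), 1237 higher from 15-somite to Prim-25 (2798) and 161 higher from Prim-25 to Long-pec (735, and 95 without mitochondrially encoded genes). With no filter, 208 of 208 list counts kept within 1.5 times. With a pseudocount of 0.1, 69 of 208 did not, nor did 31 with median-of-ratios scaling, and 28 of 176 with exact list matching. Of the 5 genes most like each member, 1 was kept for ins and 1 for insb with a pseudocount of 0.1.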

Other observations

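Genes through which insulin acts on blood glucose were also measured. Of 23 genes of glucose and lipid metabolism past the filter on low values, 11 were at least 2-fold higher and 1 lower between Protruding-mouth and 1 week (median 0.47), where 15.1% of all genes were at least 2-fold higher and ins was within 1.11 times. Over all genes 6.86% were at least 2-fold lower there. With median-of-ratios scaling 6 of the 23 were higher, and the log2(RPKM + 1) difference of ins was -0.27. The count of all genes at least 2-fold higher was then 1869, against 2993 as deposited. The gluconeogenic gene PCK1 had 31.7 and then 299.5 RPKM, and a gene with the symbol G6PC1, a glucose-6-phosphatase that releases glucose (ENSDARG00000013721), had 19.6 and then 78.4 RPKM. Other genes of gluconeogenesis were highest at 50%-epiboly, among them fbp1b at 345 RPKM (345.2) and pck2 at 262 RPKM (261.9). The other gene with the symbol G6PC1 (ENSDARG00000014967), below the filter, was also highest there, at 0.553 RPKM. It had 0.157 RPKM at Protruding-mouth and 0.232 RPKM at 1 week.

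Among 6 genes of IGF binding proteins past the filter, which hold insulin-like growth factors in the circulation, igfbp1b had 3.05 RPKM at Protruding-mouth and 130 RPKM (130.1) at 1 week, and the IGFBP2 gene ENSDARG00000052470 had 12.4 RPKM at 15-somite and 28.8 RPKM at Protruding-mouth. An IGFBP5 gene (ENSDARG00000025348) reached 12.1 RPKM at 1 week. Among liver and plasma proteins apoa1a reached 4939 RPKM at Long-pec, apoa2 3288 RPKM at Protruding-mouth and fetub 875 RPKM at 15-somite. Among oocyte and gonad genes zp3a.1 had 211 RPKM and zp3b 177 RPKM at 64-cell, and BTG4 257 RPKM at oblong-sphere.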
